A study of Homo sapiens with 19 samples.

Results

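The genes described here are 4 members of the plasminogen activation system: PLAT (tissue-type plasminogen activator), PLAU (urokinase), PLAUR (the urokinase receptor) and SERPINE2 (protease nexin-1, a protease inhibitor). They were taken by name and matched by Ensembl identifier, and they are 4 of the 32703 genes listed in all 19 matrices of the study. All 4 passed the filter on low counts in each fit. In the GENCODE annotation of GRCh38, SERPINE2 (ENSG00000135919) lies on the minus strand of chromosome 2 from 223975045 to 224039318, and PLAU (ENSG00000122861) on the plus strand of chromosome 10 from 73909177 to 73917496. PLAUR (ENSG00000011422) lies on the minus strand of chromosome 19 from 43646095 to 43670547, and PLAT (ENSG00000104368) on the minus strand of chromosome 8 from 42174718 to 42207709.

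Plasminogen is made by hepatocytes and circulates as an inactive precursor, which tissue-type activator or urokinase cuts to plasmin. Plasmin dissolves fibrin and, directly or through matrix metalloproteinases, degrades extracellular matrix, so the balance between activators and their inhibitors is followed in liver fibrosis. Tissue-type activator works best on fibrin, whereas urokinase acts at the cell surface when it is held by its glycolipid-anchored receptor. Protease nexin-1 forms complexes with urokinase, tissue-type activator and thrombin, and the complexes are cleared by endocytic receptors of the LDL receptor family.

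The study profiled single cells of liver organoids grown from W01, an established human pluripotent line, in 19 droplet libraries of 9 groups, all of wild-type genotype. Untreated organoids in plates of ultra-low attachment (ULA) gave 3 libraries at day 21 and 2 at day 34. Those moved on an orbital shaker (OS) were all taken at day 25, in 7 groups of 2 libraries each: untreated, TGFB1 (transforming growth factor β1, 10 ng/ml) and its control, PA (500 µM) and its control, and OA (500 µM) and its control. TGFB1 and PA were given for 5 days after 20 days of culture, per the labels. What PA and OA abbreviate is not given by the labels, which also do not say what the control organoids received, and give the OA dose without a duration. Day 34 ULA and all OS organoids were trypsinized for 10 minutes longer than day 21 organoids, so in the ULA comparison age and dissociation cannot be told apart. All libraries come from 1 line, and nothing states that replicates were separate differentiations, so p-values measure only the spread between these libraries, which may be technical.

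A barcode was kept as a cell if it had 500 or more genes and no more than 20% mitochondrial counts, which left 120240 of 138053. Levels are unique molecular identifiers (UMIs, the molecules counted) summed per library and scaled to its total (CPM). Libraries held 7476533 to 92522222 UMIs and a median of 1104 to 13813.5 UMIs per barcode, and replicate 1 of the TGFB1 control and of the PA control were the shallowest of their pairs. PLAU had 29 to 2960 UMIs per library, PLAUR 88 to 6687, SERPINE2 218 to 12769 and PLAT 154 to 37249, so PLAU carried the widest counting error. No 2 libraries shared more than 43 cell barcodes.

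Cells were also split by their own transcripts into EPCAM-positive cells (at least 1 EPCAM UMI, an epithelial adhesion molecule, and no COL1A2 or COL3A1 UMI) and COL-positive cells (at least 1 UMI of the fibrillar collagen genes COL1A2 or COL3A1 and no EPCAM UMI). Of the kept cells 45.3% were EPCAM-positive, 21.6% COL-positive, 22.7% had both and 10.4% neither. The 6 mesenchymal markers that did not define the classes (COL1A1, DCN, LUM, PDGFRA, PDGFRB and ACTA2) had a summed level of 838 to 5874 CPM in the COL-positive cells of a library and 21.1 to 414 CPM in its EPCAM-positive cells. In ULA libraries 73.6% to 99.2% of cells held a collagen UMI, so the EPCAM-positive class was small there, with 23 cells in day 34 replicate 1. That class and the 38 COL-positive cells of OA replicate 2 were under the minimum of 50 cells and left out of the class tests, so day 34 EPCAM-positive cells and OA COL-positive cells are each represented by 1 library in the class tests, except where another class rule is named. Such a test has no replicate on that side: the lone library is assumed to vary like the libraries of the other groups, and its p-value rests on that assumption. Summed endothelial markers reached at most 5.7 CPM and summed macrophage and blood markers at most 21.3 CPM outside the OA libraries, where the latter were at 70.8 to 82.3 CPM with up to 5 of the 6 markers at 0.

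Promoter sequence is shown for SERPINE2, PLAU and PLAUR, and its relation to the response to TGFB1 was not tested. Windows of 250 bases before a RefSeq start site (GRCh38.p14) are described for these 3 of the 4 members. No window is given for the remaining member, which says nothing about its promoter. Of each member described 1 window is shown, and only stretches outside annotated UTRs, or at most 30 bases, are printed. Capitals mark matches on either strand to TGANTCA (AP-1), CAGAC (the SMAD box), GGGCGG (Sp1) or CCAAT, none of which overlap another.
SERPINE2, chr2:224031479-224031728, minus strand: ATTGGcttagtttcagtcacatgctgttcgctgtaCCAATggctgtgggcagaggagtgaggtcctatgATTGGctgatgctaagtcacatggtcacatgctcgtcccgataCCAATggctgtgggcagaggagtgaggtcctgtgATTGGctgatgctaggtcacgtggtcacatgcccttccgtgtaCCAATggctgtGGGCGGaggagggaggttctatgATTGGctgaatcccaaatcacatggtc
PLAU, chr10:73910882-73911103, plus strand: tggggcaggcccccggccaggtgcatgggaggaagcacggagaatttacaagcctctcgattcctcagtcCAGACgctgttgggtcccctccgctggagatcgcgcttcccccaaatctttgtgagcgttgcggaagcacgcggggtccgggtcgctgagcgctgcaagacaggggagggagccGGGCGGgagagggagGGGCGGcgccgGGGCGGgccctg
PLAUR, chr19:43670337-43670366, minus strand: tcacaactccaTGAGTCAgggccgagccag
The SERPINE2 window held 7 CCAAT matches, alternating between the strands. The printed letters repeat, with CCAAT from bases -215, -138 and -61 and ATTGG from bases -181, -104 and -27, so the matches are not separate elements. A count of 7, a limit set from this window itself, was reached by 7 of 35116 RefSeq windows of that length. A CCAAT match of any number stood in 32.01% of windows. The PLAU window held 3 GGGCGG matches (42.64% of windows had at least 1) and 1 CAGAC match (38.0%). The PLAUR window held 1 AP-1 match, from base -186 before the start site, as 6.57% of windows did, and 1 CAGAC match, from base -51, outside the printed stretch. Both PLAUR matches overlap an annotated UTR of a transcript. The printed SERPINE2 and PLAU windows lie inside the annotated genes, and the other window of each lies nearer the gene's upstream end. The other SERPINE2 window held no CCAAT match and 2 GGGCGG matches, and the other PLAU window 1 CCAAT match. These matches describe letters in the windows, and the 3′ counts do not say which start site a transcript used.

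Across the 9 groups the 4 genes had different orders of level. SERPINE2 was highest with OA, at 222 ± 21.2 CPM (SD, n = 2), and next with TGFB1, at 176 ± 6.25 (n = 2). It then stood at 134 ± 51.4 in untreated OS organoids, 133 ± 17.4 in the OA control, 83.1 ± 15.1 on ULA day 34, 69.4 ± 5.96 on ULA day 21, 53.6 ± 21.1 in the PA control and 45.6 ± 26.7 with PA. The TGFB1 control was lowest, at 17.3 ± 4.94 CPM, and its libraries overlapped no other group. From ULA day 34 down to PA, neighbouring groups overlapped, as untreated organoids and the OA control did.

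PLAU was highest with TGFB1, at 56.7 ± 14.9 CPM, and on ULA day 34, at 33.5 ± 2.77, and these groups overlapped no others. OA, untreated, OA control and ULA day 21 organoids followed at 12.9 ± 1.61, 12.9 ± 5.56, 10.7 ± 2.04 and 9.64 ± 1.28 CPM, each overlapping its neighbour, and the TGFB1 control at 8.30 ± 0.465 overlapped ULA day 21. PA organoids and their control were lowest, at 4.80 ± 2.74 and 4.07 ± 0.202 CPM.

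PLAUR was highest with OA, at 116 ± 11.4 CPM, above every library of the other groups. TGFB1 (73.5 ± 27.5), untreated (54.0 ± 21.0), OA control (43.6 ± 1.38) and ULA day 34 organoids (35.0 ± 27.4) overlapped in that order. The 4 lowest groups, from 17.4 ± 10.0 CPM with PA to 11.3 ± 1.71 on ULA day 21, overlapped as well.

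PLAT was highest on ULA day 34, at 414 ± 9.68 CPM, and lowest with OA, at 14.2 ± 0.100, and both groups overlapped none. OA control (166 ± 66.2), untreated (165 ± 76.0) and ULA day 21 organoids (128 ± 14.5) overlapped, and TGFB1 organoids stood apart from their neighbours at 82.4 ± 21.1. The PA control, the TGFB1 control and PA were at 44.3 ± 31.0, 43.1 ± 6.78 and 34.5 ± 11.2 CPM. Groups of different experiments differ in processing and culture, so this order was not tested.

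**Figure D1:**
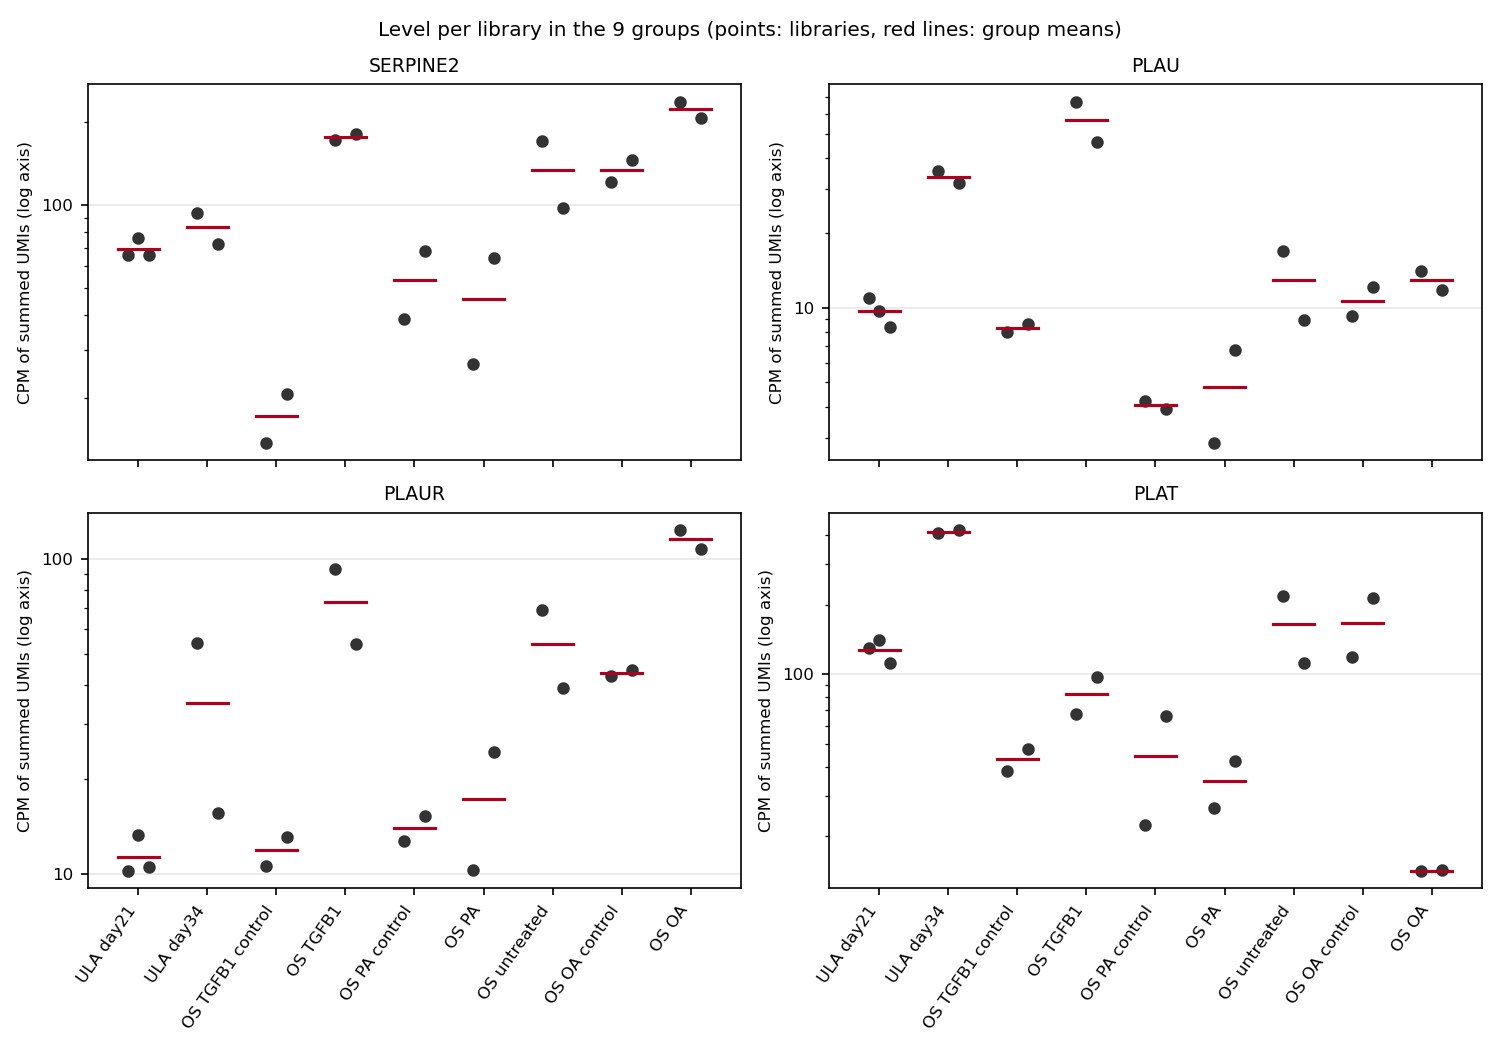
CPM of UMIs summed over the kept cells of each library (vertical log axis) in the 9 groups (horizontal axis); each point is 1 library and each red line a group mean. SERPINE2, PLAU and PLAUR are high with TGFB1, SERPINE2 and PLAUR also with OA, whereas PLAT is highest on ULA day 34 and lowest with OA.

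Cell class was compared within libraries, because both classes of a library share its preparation. PLAT was higher in COL-positive than in EPCAM-positive cells in all 14 OS and all 5 ULA libraries. In OS libraries the ratio of its 2 levels ran from 15.2 to 1252 with a median of 66.3, and the averaged log2 difference was 6.14 (SE 0.10, edgeR adjusted p 3.6e-23). In ULA libraries the averaged difference was 5.14 (SE 0.09, edgeR adjusted p 8.7e-22), but the days were unlike: the ratio was 127, 171 and 106 on day 21 and 1.99 and 1.30 on day 34. With classes called after each cell was thinned to 1000 UMIs the ULA difference of PLAT was 1.52. A cell that lost its UMIs of 1 kind to thinning joined the other class there, and its unthinned UMIs were summed. PLAT in COL-positive cells of OS libraries was between 168 and 840 CPM, and in EPCAM-positive cells between 0.41 and 18.3 CPM.

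SERPINE2 was higher in COL-positive cells in 12 of 14 OS libraries, with a log2 difference of 1.10 (SE 0.08, edgeR adjusted p 1.4e-11). The OA libraries were the exceptions, with 246 and 208 CPM in EPCAM-positive cells and 90.6 and 150 in COL-positive cells. The gap was widest in the TGFB1 control, at 5.67 and 9.14 CPM against 160 and 236, a log2 difference of 4.73 (SE 0.22, edgeR adjusted p 3.5e-14). In the PA control it was 0.055 (SE 0.22, edgeR adjusted p 0.891). Within those 2 groups 31.9% and 32% of genes were called between the classes. Both shares were lower without either replicate of the group, which left 1 library in it, and lowest without replicate 2.

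PLAUR was higher in COL-positive cells by 0.39 in OS libraries (SE 0.07, edgeR adjusted p 3.0e-05) and by 1.04 in ULA libraries (SE 0.10, edgeR adjusted p 4.1e-09). PLAU showed no difference past the threshold in OS libraries (log2 difference -0.08, SE 0.13, edgeR adjusted p 0.696) and was not alike in all groups. In the TGFB1 control the fitted difference was 0.90 (SE 0.33, edgeR adjusted p 0.041), but the ratio was 0.93 in replicate 1, from 6 UMIs in COL-positive cells, and 2.33 in replicate 2. It was lower in COL-positive cells with TGFB1, at -1.92 (SE 0.23, edgeR adjusted p 4.2e-07), and in untreated organoids, at -1.14 (SE 0.24, edgeR adjusted p 4.8e-04), where 40.1% and 45.5% of genes were called. In ULA libraries the averaged difference of PLAU was 1.18 (SE 0.13, edgeR adjusted p 4.1e-08), and SERPINE2 by 0.48 (SE 0.07, edgeR adjusted p 2.2e-06). For PLAU the days were again unlike, with ratios of 4.43, 2.49 and 3.74 on day 21 and 0.62 and 0.995 on day 34. When classes were called after every cell had been thinned to 1000 UMIs, the ULA difference of PLAU was 0.12 and no longer passed. Of all genes tested between the classes, 54.2% were called in OS libraries and 69.5% in ULA libraries, so the 3 and 4 members called stand against a high background.

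**Figure D2:**
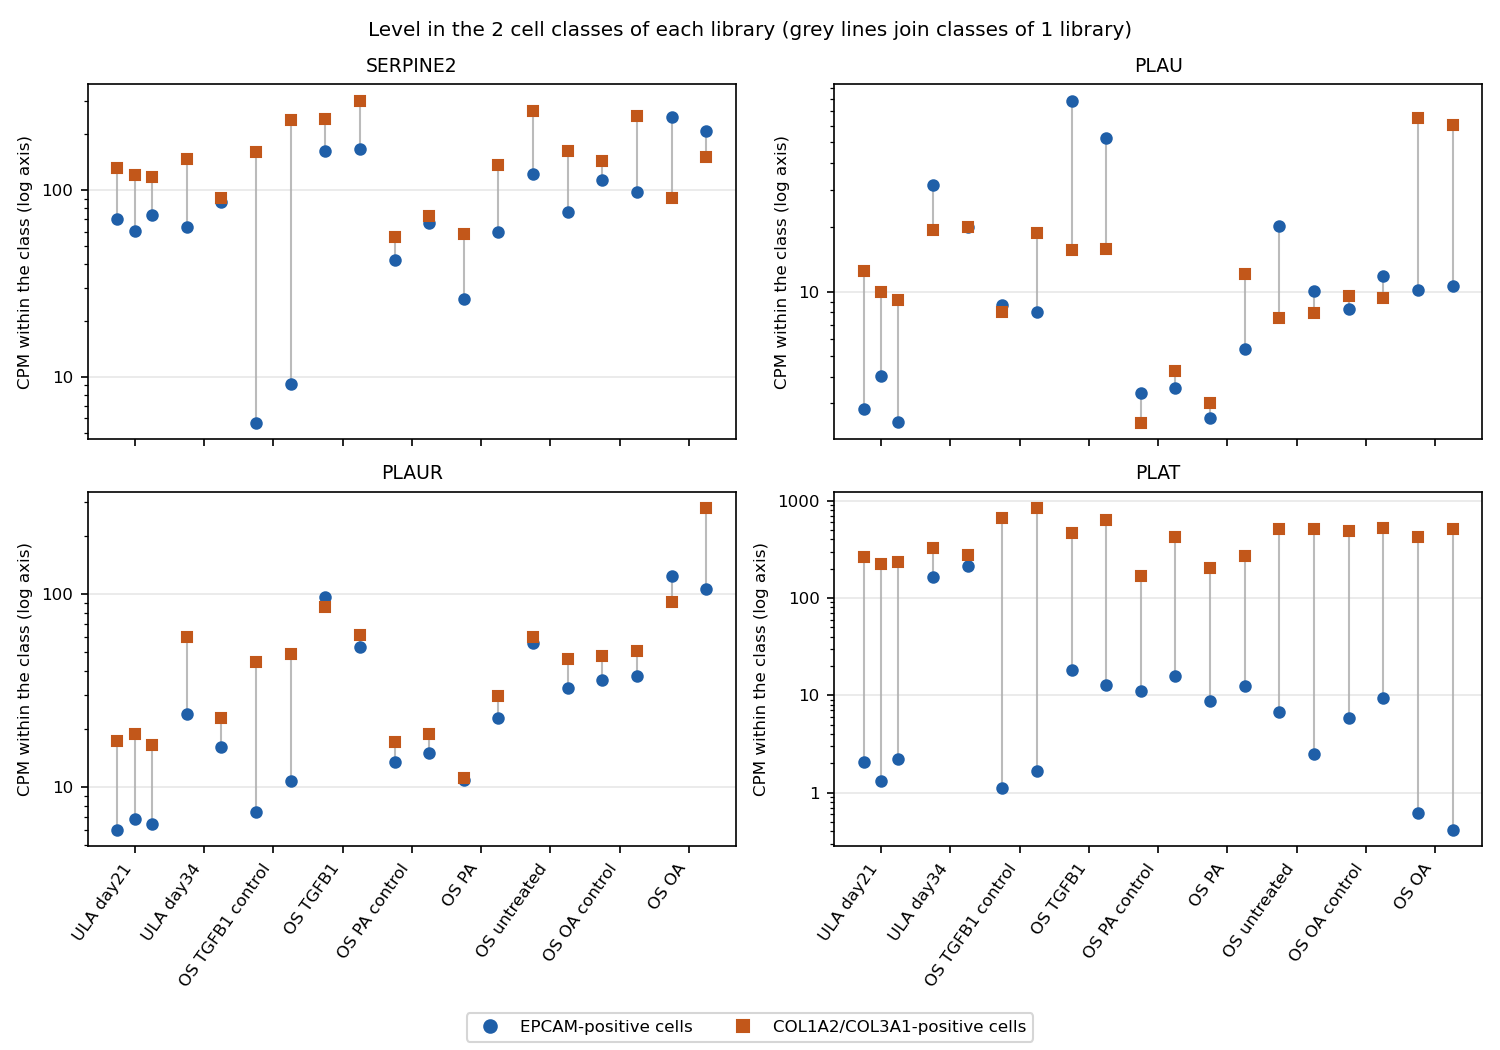
CPM within EPCAM-positive cells (blue circles) and COL1A2/COL3A1-positive cells (orange squares) of each library (vertical log axis) by group (horizontal axis), with a grey line joining the classes of 1 library; ULA day 34 replicate 1 has 23 EPCAM-positive cells and OA replicate 2 has 38 COL-positive cells. PLAT is higher in COL-positive cells of all 19 libraries, and the gap of SERPINE2 is widest in the TGFB1 control.

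Where the UMIs of each gene lay followed from level and class size together. In the TGFB1 control, EPCAM-positive cells held 23.4% and 38.6% of SERPINE2 UMIs, and with TGFB1 68.0% and 69.5%. The same cells held 1.7% and 3.0% of PLAT UMIs in the control and 19.5% and 10.0% with TGFB1. In OA organoids they held 96.4% and 94.1% of SERPINE2 UMIs and 92.8% and 91.7% of PLAUR UMIs. On ULA day 34, cells with both kinds of UMI held 75.3% and 81.6% of PLAU UMIs and 63.9% and 81.6% of PLAT UMIs, so the 2 classes describe the smaller part of both genes there.

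**Figure D3:**
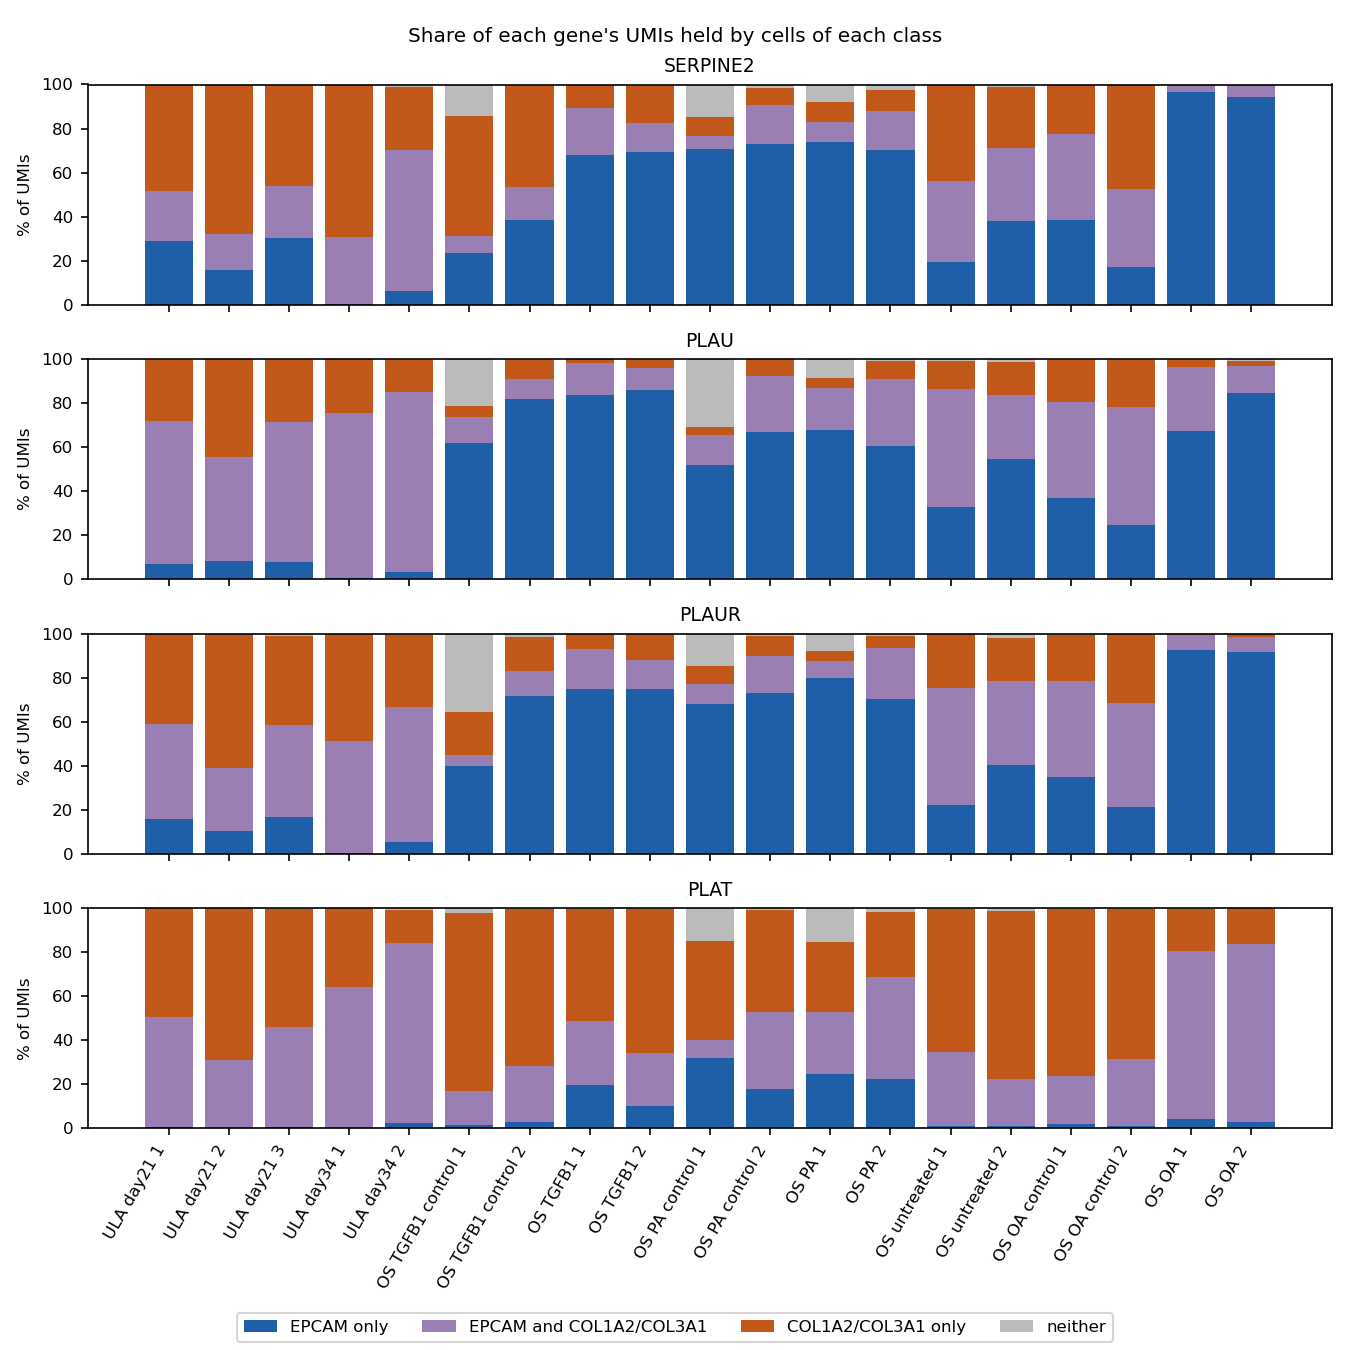
Share in percent of each gene's UMIs (vertical axis) held in each library (horizontal axis) by cells with EPCAM only, with EPCAM and COL1A2/COL3A1, with COL1A2/COL3A1 only, and with neither. EPCAM-only cells hold most SERPINE2 and PLAUR UMIs in the TGFB1, OA, PA and PA control libraries, and under 5% of PLAT UMIs in ULA, untreated, OA control, OA and TGFB1 control libraries.

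The TGFB1 comparison asks how TGFB1 changes the organoids. SERPINE2, PLAU and PLAUR rose in whole libraries, by 2.80 to 3.51 on the log2 scale, and within EPCAM-positive cells all 4 members rose. COL-positive cells showed no change past the threshold in any of the 4. Of all genes tested, 22.2% were called in whole libraries, 25% within EPCAM-positive cells and 0.0211% within COL-positive cells, and the counts of members are to be read against these shares. The shares moved with single libraries. Without TGFB1 control replicate 2, which left 1 control library, those of whole libraries and of EPCAM-positive cells were higher. In whole libraries 4293 of 19361 genes were called, and 2317 of 20163 without TGFB1 control replicate 1, 1704 of 20263 without TGFB1 replicate 1 and 2232 of 20255 without TGFB1 replicate 2. Within EPCAM-positive cells 4373 of 17524 were called, and 2725 of 18466, 1889 of 18183 and 2570 of 18203 without the same libraries. The share within COL-positive cells rested on 1 library: 3 genes were called of 14186, and 1124 of 14137 without TGFB1 control replicate 2, where the 4 members still did not pass (edgeR adjusted p 0.097 to 0.791).

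PLAU, the urokinase gene, was at 67.2 and 46.2 CPM with TGFB1 and at 7.97 and 8.63 CPM in the control. Both TGFB1 libraries lay above both controls, and the log2 fold change was 2.96 (SE 0.37, edgeR adjusted p 1.0e-04). In EPCAM-positive cells PLAU was at 78.5 and 52.3 CPM with TGFB1 against 8.67 and 8.07, a rise of 3.16 (SE 0.34, edgeR adjusted p 2.0e-05). Under 5-fold dominance it was 2.30 (edgeR adjusted p 0.0011), with control levels of 27.4 CPM, from 57 UMIs, and 9.18 CPM. COL-positive cells had 15.6 and 15.8 CPM with TGFB1 and 8.07 and 18.8 in the control, and these groups overlapped (log2 fold change 0.28, SE 0.42, edgeR adjusted p 0.803).

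PLAUR, the receptor that holds urokinase at the cell surface, was at 92.9 and 54.0 CPM with TGFB1 and at 10.6 and 13.2 CPM in the control. The groups did not overlap, and the log2 fold change was 2.80 (SE 0.39, edgeR adjusted p 2.5e-04). In EPCAM-positive cells it rose from 7.45 and 10.8 to 96.9 and 53.4 CPM, by 3.19 (SE 0.38, edgeR adjusted p 4.8e-05). In COL-positive cells it was at 44.4 and 48.9 CPM in the control and at 85.1 and 61.6 with TGFB1, which did not overlap but missed the threshold (log2 fold change 0.88, SE 0.32, edgeR adjusted p 0.293).

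SERPINE2, the inhibitor, was at 172 and 181 CPM with TGFB1 and at 13.8 and 20.8 CPM in the control, and rose by 3.51 (log2, SE 0.42, edgeR adjusted p 7.5e-05). Within EPCAM-positive cells it rose from 5.67 and 9.14 to 163 and 165 CPM, by 4.59 (SE 0.42, edgeR adjusted p 5.7e-06). Those cells stood higher in the other OS groups without a treatment. They were at 42.2 and 67.0 CPM in the PA control, 113 and 97.5 in the OA control, and 122 and 76.0 untreated. Levels of different experiments were not tested against each other. Within COL-positive cells SERPINE2 was at 241 and 302 CPM with TGFB1 and 160 and 236 in the TGFB1 control (log2 fold change 0.68, SE 0.39, edgeR adjusted p 0.457).

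PLAT, the tissue-type activator, was at 67.5 and 97.3 CPM with TGFB1 and at 38.3 and 47.9 CPM in the control. The groups did not overlap, but the log2 fold change of 1.12 (SE 0.42) had an edgeR adjusted p of 0.075 and did not pass, whereas DESeq2 gave 1.11 with an adjusted p of 0.033. In EPCAM-positive cells PLAT rose from 1.11 and 1.66 to 18.3 and 12.9 CPM, by 3.55 (SE 0.42, edgeR adjusted p 3.8e-05). This control was the lowest of the OS groups without a treatment. EPCAM-positive cells were at 10.999 and 15.9 CPM in the PA control, 5.88 and 9.38 in the OA control, and 6.68 and 2.51 in untreated organoids. Levels of different experiments were not tested against each other. After each cell was thinned to 1000 UMIs and classed again, 1.73% and 1.25% of EPCAM-positive cells held a PLAT UMI with TGFB1 and 0.12% and 0.14% in the control, against 23.1% and 37.5%, and 34.4% and 39.7%, of COL-positive cells. Without thinning the EPCAM-positive shares were 8.5% and 5.6% against 0.2% and 0.8%, at median depths of 7340 and 5173.5 UMIs with TGFB1 and 1553 and 5746.5 in the control.

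Other transcripts of the EPCAM-positive class were also at other levels with the treatment, and their part in the members' rise was not tested. Summed epithelial and ductal markers there were at 10797 and 8439 CPM with TGFB1 and 3995 and 6360 in the control, and summed gut epithelial markers at 78.6 and 98.3 against 234 and 197. Summed hepatocyte markers there were at 6180 and 5272 CPM with TGFB1 and 2865 and 4132 in the control. That sum of 8 genes does not say which of them were higher, and 1 had no UMI in TGFB1 replicate 2. COL1A1 was higher, at 348 and 405 CPM with TGFB1 and 33.5 and 17.2 in the control. It made up most of the summed level of the 6 mesenchymal markers there, 356 and 414 CPM against 41.7 and 24.1. The other 5 markers had no such gap: LUM was at 2.50 and 3.998 CPM against 2.22 and 1.27, and ACTA2 at 3.92 and 2.62 against 2.45 and 3.80. PLAT in EPCAM-positive cells was 3.91% and 2.06% of its level in COL-positive cells with TGFB1, and 0.17% and 0.20% in the control. For the 6 markers the median of that percentage was 1.33% and 1.48% with TGFB1 (COL1A1 reached 8.82% and 9.35%) and 0.83% and 0.46% in the control. COL-positive cells made up 8.5% and 9.6% of TGFB1 libraries and 4.6% and 3.9% of control libraries, and cells with both 15.8% and 8.6% against 1.9% and 5.2%. These shares are not thinned and depend on depth. The median per kept cell was 7092.5 and 5201.5 UMIs with TGFB1 and 1310 and 5635 in the control. Cells with neither made up 7.4% and 4.2% with TGFB1 and 44.7% and 4.9% in the control. The part of transcripts carried over between cells in the PLAT rise was not tested.

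The effect of TGFB1 differed between the classes for all 4 members, where 6.3% of all genes were called. That is 1180 genes of 18744, and 642 of 18690 were called without TGFB1 replicate 1 and 632 of 18702 without replicate 2. The effect in COL-positive cells was lower than that in EPCAM-positive cells by a log2 difference of -3.92 for SERPINE2 (SE 0.27, edgeR adjusted p 1.4e-09), -3.82 for PLAT (SE 0.35, edgeR adjusted p 1.3e-07), -2.82 for PLAU (SE 0.42, edgeR adjusted p 8.5e-05) and -2.21 for PLAUR (SE 0.23, edgeR adjusted p 6.8e-07). For PLAU the difference was -1.68 (edgeR adjusted p 0.31) without TGFB1 control replicate 2. Replicate 1 has 6 PLAU UMIs in its COL-positive cells.

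Of 46 other genes of the plasminogen system, 44 were tested with TGFB1, and 15 were higher and 8 lower, where 22.2% of all genes were called, with a median log2 fold change of 0.49 against -0.05 over all genes. The integrins and other partners of PLAUR had 6 of 8 genes higher and 1 lower. Among the protease inhibitors 2 of 8 were higher and 3 lower, and among the genes of plasminogen and its surface binding 2 of 7 were higher and 1 lower. TFPI2, a Kunitz-type inhibitor of plasmin and other proteases, rose from 19.2 and 29.0 to 222 and 181 CPM (log2 fold change 3.23, SE 0.40, edgeR adjusted p 1.0e-04). MMP2, a gelatinase, rose from 12.02 and 15.4 to 105 and 118 CPM (edgeR adjusted p 3.0e-05), and MMP9, another gelatinase, from 1.33 and 2.10 to 12.7 and 7.83 CPM (edgeR adjusted p 0.0068). CPB2, which shields fibrin from plasmin, fell from 14.9 and 12.4 to 0.41 and 0.64 CPM (edgeR adjusted p 7.7e-05). LRP2, an endocytic receptor, fell from 7.34 and 6.10 to 0.59 and 0.43 CPM (edgeR adjusted p 0.0033). PLG, plasminogen itself, had 1.08 and 0.94 CPM in the control and no UMI in either TGFB1 library, which allows up to 0.068 and 0.077 CPM (edgeR adjusted p 7.7e-05).

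**Figure D4:**
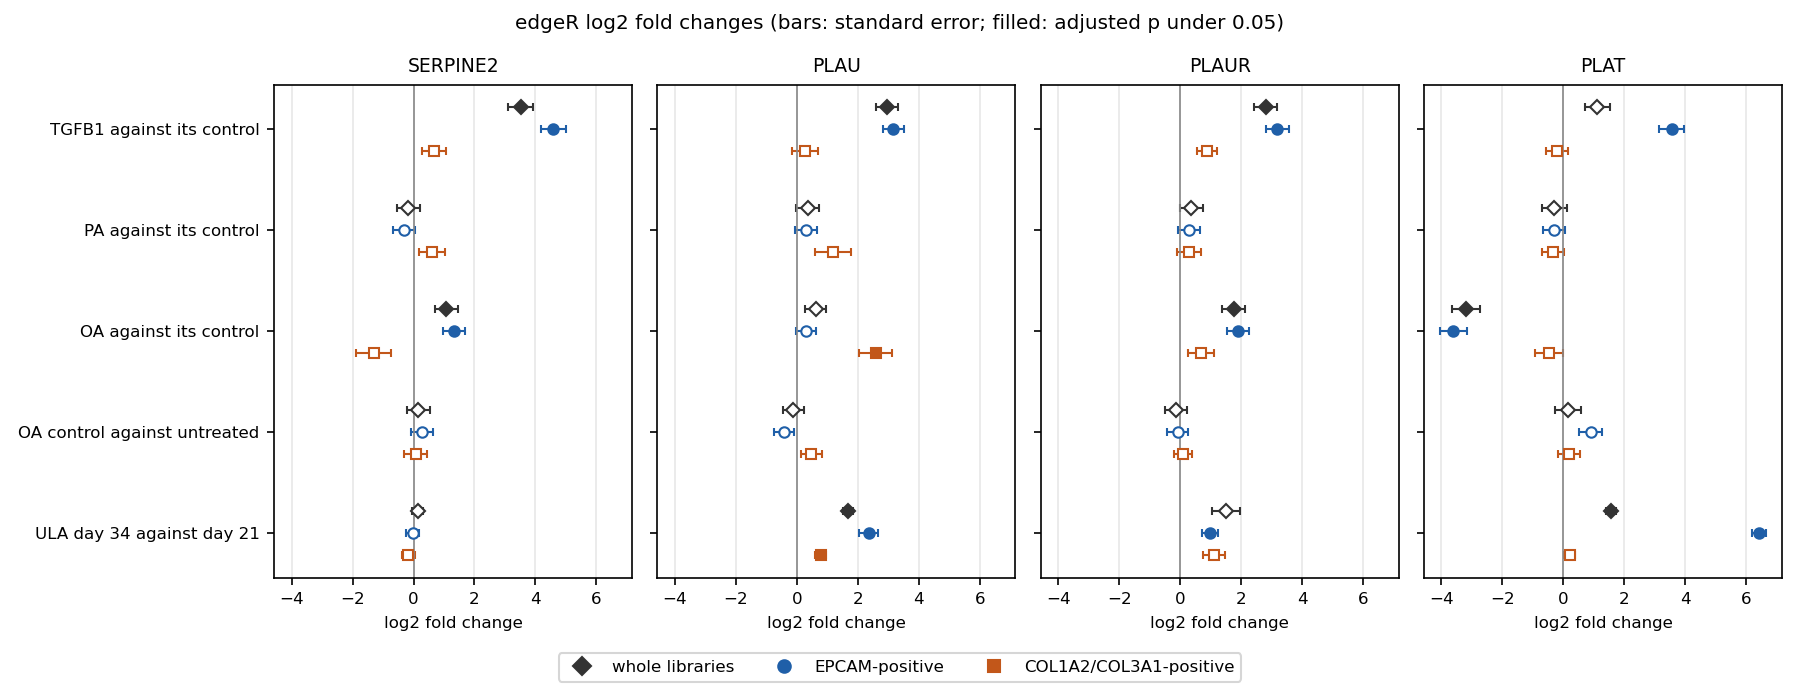
edgeR log2 fold changes with standard errors (horizontal axis) of the 4 members in 5 comparisons (vertical axis), in whole libraries (diamonds), EPCAM-positive cells (circles) and COL-positive cells (squares); filled symbols have an adjusted p under 0.05. With TGFB1 all 4 members are filled in EPCAM-positive cells and none in COL-positive cells, and with PA no symbol is filled.

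With OA, PLAUR and SERPINE2 rose and PLAT fell, while PLAU did not pass the threshold. COL-positive cells made up 1.9% and 1.2% of cells with OA against 35.3% and 37.5% in its control. These shares are not thinned and depend on depth. Whether such cells or their collagen UMIs were fewer was not tested. Of all genes 43.3% were called in whole libraries, so the 3 members called of 4 stand in a wide response. That share was lower with any 1 OA or OA control library left out.

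PLAUR was at 124 and 108 CPM with OA and at 42.6 and 44.6 CPM in its control, with no overlap (log2 fold change 1.75, SE 0.37, edgeR adjusted p 0.0021). EPCAM-positive cells alone showed 124 and 106 CPM against 35.9 and 37.5, a rise of 1.89 (SE 0.36, edgeR adjusted p 0.0013), where 35.9% of genes were called. That is 6296 of 17524, and 3496 of 18557 were called without OA control replicate 2 and 3259 of 18187 without OA replicate 1. In the same class summed gut epithelial markers were at 3135 and 2179 CPM with OA and 590 and 350 in the control, and summed hepatocyte markers at 24321 and 23494 against 17881 and 16445, and their part in the rises of PLAUR and SERPINE2 was not tested. After thinning, 11.5% and 8.52% of EPCAM-positive cells held a PLAUR UMI with OA, and 3.16% and 4.84% in the control. The unthinned shares were 47.3% and 35.9% against 18.5% and 25.0%.

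SERPINE2 was at 237 and 207 CPM with OA and at 121 and 146 CPM in the control (log2 fold change 1.08, SE 0.38, edgeR adjusted p 0.035). The groups did not overlap, but with any 1 of the 4 libraries left out the edgeR adjusted p was 0.071 to 0.147. In EPCAM-positive cells SERPINE2 was at 246 and 208 CPM against 113 and 97.5, a rise of 1.34 (SE 0.36, edgeR adjusted p 0.011). It was 1.16 (edgeR adjusted p 0.0996) without OA control replicate 2 and 1.19 (edgeR adjusted p 0.074) without OA replicate 1.

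PLAT was at 14.1 and 14.3 CPM with OA and at 119 and 213 CPM in the control, and its log2 fold change was -3.19 (SE 0.45, edgeR adjusted p 1.2e-04). Its level in COL-positive cells was 419 and 515 CPM with OA and 486 and 529 in the control. The fit with OA replicate 1 alone had no change past the threshold (log2 fold change -0.47, SE 0.46), which does not show that the level was unchanged. In EPCAM-positive cells PLAT was at 0.62 and 0.41 CPM against 5.88 and 9.38 and fell by 3.61 (SE 0.43, edgeR adjusted p 5.0e-05). Most mesenchymal markers were lower there too: COL1A1 was at 5.10 and 5.55 CPM with OA and 30.2 and 41.2 in the control, ACTA2 at 1.54 and 2.16 against 15.9 and 13.2, and PDGFRA at 0.16 and 0.21 against 1.18 and 2.72. LUM was higher, at 46.5 and 23.3 CPM against 7.32 and 4.69, so the sum of the 6 markers, 54.5 and 31.4 against 56.2 and 64.3, does not show their lower levels; none of these marker levels was tested here. PLAT there was 0.15% and 0.08% of its COL-positive level with OA and 1.21% and 1.77% in the control, beside a median over the 6 markers of 1.54% and 0.75%, and 0.75% and 0.95%. The part of carried-over transcripts in this fall was not tested.

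PLAU was at 14.1 and 11.8 CPM with OA and at 9.23 and 12.1 CPM in the control, and these overlapped (log2 fold change 0.63, SE 0.34, edgeR adjusted p 0.159). In EPCAM-positive cells it was at 10.2 and 10.7 against 8.28 and 11.9 CPM (edgeR adjusted p 0.486). The COL-positive cells found with OA were at 65.1 and 60.1 CPM, from 23 and 14 UMIs, against 9.51 and 9.30 in the control. The fitted difference of 2.59 (SE 0.54, edgeR adjusted p 0.013) rests on the 60 cells of OA replicate 1, with the spread of the other groups, and had an edgeR adjusted p of 0.054 without OA control replicate 2, and 3.76% of genes were called in the class. These cells carried epithelial transcripts as well: KRT7 was at 394 and 279 CPM in them and at 21.4 and 13.2 CPM in COL-positive control cells, KRT5 was at 1540 and 55.8 CPM against 65.0 and 79.4, and their part in the PLAU value was not tested.

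The OA effect differed between classes in the fit for all 4 members, with OA replicate 1 as the lone OA library in COL-positive cells, where 8.35% of genes were called and the median over all genes was -0.80. Without OA control replicate 2 the called genes went from 1565 of 18744 to 987 of 18003. The differences, COL-positive minus EPCAM-positive, were -2.93 for SERPINE2 (SE 0.38, edgeR adjusted p 3.0e-05), 2.66 for PLAT (SE 0.48, edgeR adjusted p 9.5e-04), 2.12 for PLAU (SE 0.52, edgeR adjusted p 0.011) and -1.51 for PLAUR (SE 0.30, edgeR adjusted p 0.0021). The value for PLAUR was 0.11 when classes were called at 1000 UMIs and -0.06 when each cell needed 5 times as many UMIs of its own class, so its sign and its call depended on how cells were classed. Within COL-positive cells neither PLAUR (0.69, SE 0.44, edgeR adjusted p 0.467) nor SERPINE2 (-1.31, SE 0.58, edgeR adjusted p 0.270) passed. Under 5-fold dominance, with 2 OA libraries, both passed, at 1.87 (edgeR adjusted p 2.99e-04) and -1.39 (edgeR adjusted p 0.0086).

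Of the other plasminogen genes 18 of 44 were higher with OA and 6 lower, where 43.3% of all genes were called, with a median log2 fold change of 0.42 against -0.08 over all genes. PLG rose from 0.72 and 0.42 to 6.32 and 4.42 CPM (log2 fold change 3.55, SE 0.39, edgeR adjusted p 2.7e-05). SERPINC1, antithrombin, was at 0.52 and 0.56 CPM against 0.072 and 0.019 (edgeR adjusted p 0.0011), and KLKB1, plasma prekallikrein, at 0.093 and 0.096 against 0.018 and no UMI (edgeR adjusted p 0.024). MRC2, a collagen receptor of mesenchymal cells that binds the urokinase receptor complex, fell from 55.2 and 109 to 1.17 and 1.23 CPM (log2 fold change -5.73, SE 0.67, edgeR adjusted p 3.1e-05). HGF, a growth factor activated by serine proteases, fell from 8.28 and 11.6 CPM to 0.11 CPM and no UMI (edgeR adjusted p 2.1e-05), and MMP3, stromelysin, from 0.83 and 2.71 to 0.019 CPM and no UMI (edgeR adjusted p 1.5e-04). A library without a UMI allows up to 0.058 CPM for OA replicate 2 and 0.057 CPM for OA control replicate 2.

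With PA none of the 4 members passed the threshold, and edgeR called 9 genes in all (0.0465%), with 540 at an unadjusted p under 0.05. SERPINE2 was at 26.7 and 64.5 CPM with PA and 38.7 and 68.5 in its control (log2 fold change -0.17, SE 0.38), and PLAT at 26.6 and 42.5 against 22.4 and 66.2 (log2 fold change -0.30, SE 0.42). PLAU was at 2.86 and 6.73 CPM against 4.22 and 3.93 (log2 fold change 0.35, SE 0.38), and PLAUR at 10.3 and 24.5 against 12.8 and 15.3 (log2 fold change 0.37, SE 0.38). The edgeR adjusted p was 1 for each, and the libraries of the 2 groups overlapped in all 4 genes. Neither class showed a change of a member past the threshold, with 0.103% of genes called in EPCAM-positive cells and 0% in COL-positive cells, where 580 genes had an unadjusted p under 0.05 in edgeR. The PA effect on SERPINE2 was higher in COL-positive than in EPCAM-positive cells by 0.90 (SE 0.29, edgeR adjusted p 1), which among the alternatives run passed only without the filter on low counts (0.93, edgeR adjusted p 0.037). The PLAT level of EPCAM-positive cells was 10.999 and 15.9 CPM in the PA control and 8.70 and 12.5 CPM with PA. That level was 6.56% and 3.76%, and 4.27% and 4.66%, of the COL-positive level, beside marker medians of 0.71% to 1.93%. The highest marker was at 7.14% and 2.82% in the PA control, above PLAT in replicate 1, and at 2.55% and 3.48% with PA. None of the 44 other plasminogen genes was called.

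The OA control and untreated organoids did not differ past the threshold in any member (edgeR adjusted p 0.890 to 0.905, with 0.573% of genes called), nor within EPCAM-positive cells (1.29%) or COL-positive cells (0.0352%). SERPINE2 was at 121 and 146 CPM in the OA control and 171 and 97.8 in untreated organoids. PLAT was at 119 and 213 against 219 and 112, PLAU at 9.23 and 12.1 against 16.8 and 8.95, and PLAUR at 42.6 and 44.6 against 68.8 and 39.2. The PLAU effect differed between classes by 0.95 (edgeR adjusted p 0.419), and by 1.29 without untreated replicate 2, where it passed (edgeR adjusted p 0.013). The control values lay within the untreated range for SERPINE2, PLAT, PLAUR and PLAU alike. This comparison shares the OA control libraries with the OA comparison.

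On ULA day 34, PLAT and PLAU were higher than on day 21, with 17.5% of all genes called. That is 3285 of 18762 genes. Without day 21 replicates 1, 2 and 3 the counts were 760 of 18532, 1405 of 18605 and 669 of 18604. More genes were called without either day 34 library, which left 1 library on that day. PLAT was at 407 and 421 CPM on day 34 and at 130, 141 and 112 CPM on day 21, with no overlap (log2 fold change 1.57, SE 0.16, edgeR adjusted p 0.0025). PLAU was at 35.5 and 31.6 CPM against 10.9, 9.67 and 8.35, also with no overlap (log2 fold change 1.68, SE 0.17, edgeR adjusted p 0.0020). PLAUR was at 54.4 and 15.7 CPM against 10.2, 13.3 and 10.5 (log2 fold change 1.51, SE 0.46, edgeR adjusted p 0.063), and without day 34 replicate 1 its log2 fold change was 0.34, and without replicate 2 it was 2.14 and passed. SERPINE2 was at 93.8 and 72.5 CPM against 66.1, 76.3 and 65.8, overlapping between days (log2 fold change 0.14, SE 0.18, edgeR adjusted p 0.624).

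Summed marker levels of several cell types differed between the days. Summed basal squamous markers (KRT5, KRT14, KRT15, TP63 and ITGB4) were at 353 and 963 CPM on day 34 and between 23.9 and 34.0 on day 21, and summed hepatocyte markers at 96.6 to 847 against 2363 to 2691. Within EPCAM-positive cells the hepatocyte sum was at 4381 and 5924 CPM on day 34 and 6780 to 8936 on day 21. In EPCAM-positive cells PLAT was at 2.09, 1.32 and 2.21 CPM on day 21, which was 0.58% to 0.94% of its COL-positive level and below the marker medians of 1.49% to 1.62%. Whether carried-over transcripts account for it was not tested. On day 34 it was at 212 CPM in the 747 EPCAM-positive cells of replicate 2 and at 166 CPM, from 42 UMIs, in the 23 of replicate 1. The fitted difference was 6.41 (SE 0.23, edgeR adjusted p 1.1e-07), with replicate 2 alone on day 34 and a spread taken from the day 21 libraries. With the requirement of 5 times as many UMIs of EPCAM as of collagen, PLAT was at 95.7 and 129 CPM on day 34 and 3.08 to 4.54 CPM on day 21. On day 34 it was 77.0% of the COL-positive level in replicate 2, where the 6 markers had a median of 8.99% and a highest value of 37.1%. KRT5 in those cells was at 556 CPM, and its part in the PLAT level was not tested.

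With that same lone library, PLAU in EPCAM-positive cells was at 2.83, 4.03 and 2.44 CPM on day 21 and at 20.1 CPM on day 34 (log2 fold change 2.36, SE 0.31, edgeR adjusted p 5.2e-04), and PLAUR at 5.96, 6.82 and 6.41 against 16.2 CPM (log2 fold change 0.97, SE 0.25, edgeR adjusted p 0.023). In COL-positive cells PLAU rose from 12.5, 10.0 and 9.14 to 19.5 and 20.0 CPM (log2 fold change 0.78, SE 0.17, edgeR adjusted p 0.019), and PLAT was at 330 and 276 CPM against 265, 226 and 235 (edgeR adjusted p 0.427). PLAUR in COL-positive cells was at 59.7 and 22.6 CPM against 17.2, 18.9 and 16.5 (log2 fold change 1.12, SE 0.35, edgeR adjusted p 0.059). It was 0.21 (edgeR adjusted p 0.503) without day 34 replicate 1 and 1.65 (edgeR adjusted p 4.0e-06) without replicate 2. Without ULA day 21 replicate 1 the fitted difference of PLAUR in EPCAM-positive cells was 0.92 (edgeR adjusted p 0.067), and PLAU in COL-positive cells did not pass without any 1 of the 3 day 21 libraries (0.70 to 0.91). Within EPCAM-positive cells 19.1% of genes were called, and within COL-positive cells 19.4%. The latter is 3022 of 15545 genes, and 734 of 15701, 1170 of 15370 and 1223 of 15702 were called without day 21 replicates 1, 2 and 3, and 4619 of 16365 without day 34 replicate 2. The effects differed between classes in the fit by -6.38 for PLAT (SE 0.19, edgeR adjusted p 4.9e-16), -1.60 for PLAU (SE 0.29, edgeR adjusted p 2.6e-04), -0.75 for PLAUR (SE 0.25, edgeR adjusted p 0.030) and -0.56 for SERPINE2 (SE 0.17, edgeR adjusted p 0.017), where 22.9% of genes were called (3989 of 17389, and 2589 of 17194 without day 21 replicate 1). At 1000 UMIs both day 34 libraries had enough cells, with 165 and 1415 EPCAM-positive cells against 23 and 747. The cells gained held collagen UMIs before thinning. With these classes the difference of PLAT was -2.47 (edgeR adjusted p 8.1e-05) and that of PLAU -0.91 (edgeR adjusted p 0.0095). Under 5-fold dominance the difference of PLAT was -4.35, and its fitted difference between days in EPCAM-positive cells 4.78. At 1000 UMIs the difference of SERPINE2 was -0.02 and that of PLAUR -0.54, and neither passed, nor did they without day 21 replicate 1 (-0.56 and -0.73).

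Of 43 other plasminogen genes tested between the ULA days, 8 were higher and 7 lower, where 17.5% of all genes were called. SERPINB2, another inhibitor of urokinase, rose from 0.21, 0.14 and 0.10 to 12.5 and 6.49 CPM (log2 fold change 5.84, SE 0.43, edgeR adjusted p 0.0013). ITGA3, an integrin subunit that binds laminin and PLAUR, rose from 12.2, 7.12 and 11.1 to 23.6 and 29.4 CPM (edgeR adjusted p 0.017), and F13A1, a fibrin-crosslinking enzyme, from at most 0.013 to 0.22 and 0.19 CPM (edgeR adjusted p 0.0096). F2, prothrombin, fell from 43.2, 36.8 and 35.8 to 0.13 and 0.69 CPM (log2 fold change -6.64, SE 0.59, edgeR adjusted p 0.0016). FGG, fibrinogen gamma, fell from 27.4, 28.6 and 30.3 to 1.81 and 1.57 CPM (edgeR adjusted p 3.0e-04), and SERPINC1 was at 0.18, 0.15 and 0.11 CPM on day 21 and at no UMI and 0.011 CPM on day 34 (edgeR adjusted p 0.015).

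The genes whose level over the 19 libraries was most like that of a member were found by Pearson's r of log2(CPM + 1), among 8982 genes with a mean of at least 10 CPM. These are descriptions, since libraries share groups, depth and cell composition. For SERPINE2 they were KDELR3 (0.94), KRT7 (0.86), PLAUR (0.85), ITGA2 (0.84) and SEC13 (0.84), and for PLAUR they were SBDS (0.91), LAMA3 (0.91), ETS2 (0.89), MYO1E (0.89) and RAB30 (0.88). For PLAU they were PMAIP1, NUCB2, TANC2, SPRY4 and TSPO, at 0.90 to 0.92, and for PLAT they were DEGS1, DNM3OS, PCDH10, S1PR3 and MSRB3, at 0.95 to 0.96. Among the members, SERPINE2 and PLAUR were most alike, PLAU had an r of 0.56 with SERPINE2 and 0.58 with PLAUR, and PLAT had 0.16 with SERPINE2, 0.45 with PLAU and -0.07 with PLAUR.

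PLAU and PLAUR, the protease and its receptor, were also looked for in the same cells at 1000 UMIs per cell. With TGFB1, 327 and 265 cells held a PLAU UMI, 465 and 308 a PLAUR UMI, and 71 and 36 both, of 5875 and 6803 cells. In the control 29 and 47 cells held PLAU, 54 and 101 PLAUR, and 1 and 7 both, of 6688 and 8315. Thinning left out 101 to 2927 cells of these libraries as too shallow.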

How the data were processed

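The deposited values are counts of UMIs per gene and cell in filtered droplet matrices, 1 per library. Per the submitters' processing notes they come from bcl2fastq, Cell Ranger 3.0.2 and Scanpy on GRCh38, and per the file headers 13 matrices carry software version 3.0.2 and the 6 of the untreated, OA control and OA groups 6.0.2. For alignment settings, the sources used here say nothing. ULA matrices list 58721 genes, those of the TGFB1 and PA experiments 33538, and those of the untreated, OA control and OA groups 36601. The lists thus differ within version 3.0.2 as well. Counts were restricted to the 32703 shared genes, which sets the CPM denominator. These held 95.4% to 97.2% of the UMIs of kept cells in ULA libraries and 99.5% to 99.97% in OS libraries.

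Cells with at least 500 genes and at most 20% mitochondrial counts were summed per library, or per library and class with at least 50 cells. Doublets were not removed; removing the highest Scrublet scores was an alternative. edgeR 4.0.16 (quasi-likelihood, TMM, filterByExpr; limma 3.58.1, R 4.3.3) was fitted with a mean per group over 14 OS or 5 ULA libraries, and p-values were adjusted by Benjamini-Hochberg over all genes tested. A standard error is the log2 fold change divided by the root of the F statistic. Between classes, the library was a block and the difference of 2 effects an interaction term. The scripts were tested on simulated data. Python 3.11.15, scanpy 1.11.5, pandas 2.3.3, numpy 2.4.6, scipy 1.17.1 and matplotlib 3.10.9 were used, and DESeq2 1.42.0 as an alternative.

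The genes named are the 4 members, the 3 plasminogen genes with the largest rise and fall among those called in each whole-library comparison, and the 5 genes most like each member. The members and lists were chosen with earlier results of these data known. Limits for a count of 0 are 3 counts of the library's total and cover counting error only. Alternatives were other size factors, DESeq2, no filter, all barcodes, doublet removal, other class rules, a replicate block, smaller fits, other gene sets and leaving out each library. One item of the system is not reported here.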

Additional observations from a re-analysis of the deposited data

Results flagged for a closer look

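In an edgeR interaction test the effect of a treatment, or the difference between ULA days, was unlike in COL-positive and EPCAM-positive cells. This held for each of the 4 members in 3 comparisons. These calls are to be read against the share of all genes called, given above with each comparison. Between the ULA days age and dissociation cannot be told apart. In the OA and ULA comparisons 1 side is a lone library that is assumed to vary like the others, so only the 4 TGFB1 calls have replicates on every side, and 4 of the 12 calls were lost under some alternative. The values are the log2 effect in COL-positive cells minus that in EPCAM-positive cells. With TGFB1 they were -3.92 for SERPINE2, -3.82 for PLAT, -2.82 for PLAU and -2.21 for PLAUR, and that of PLAU was -1.68 (edgeR adjusted p 0.31) without TGFB1 control replicate 2. With OA they were -2.93 for SERPINE2, 2.66 for PLAT, 2.12 for PLAU and -1.51 for PLAUR, resting on 60 COL-positive cells of 1 OA library. For PLAUR with OA it was 0.11 at 1000 UMIs and -0.06 under 5-fold dominance, and did not pass. Between ULA days they were -0.56 for SERPINE2, -6.38 for PLAT, -1.60 for PLAU and -0.75 for PLAUR, resting on 1 day 34 library. At 1000 UMIs these became -0.02 for SERPINE2 and -0.54 for PLAUR, which did not pass, and -2.47 for PLAT and -0.91 for PLAU, which did. Under that rule the EPCAM-positive class took in cells that held collagen UMIs before thinning. SERPINE2 and PLAUR also lost the threshold with DESeq2 and without ULA day 21 replicate 1.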

How the results depend on the processing

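Of 860 alternative log2 values for the members, 776 kept their direction and their side of the threshold. PLAT with TGFB1 passed with DESeq2 (1.11), no filter (1.13), a replicate block (1.12) and a fit of the 2 groups (1.12). PLAU with OA passed with no filter (0.62) and a fit of the 2 groups (0.58), and PLAUR on ULA day 34 with DESeq2 (1.51) and no filter (1.499). Replicate numbers share only a number: deviations of same-numbered libraries correlated at -0.27 (TGFB1), 0.09 (PA), 0.03 (OA), -0.47 (OA control and untreated), and -0.18 and -0.30 (ULA). With the replicate block PLAT (1.51) and PLAU (1.60) on ULA day 34 no longer passed, nor did PLAU there in COL-positive cells (0.70). PLAU between classes of OS libraries was 0.20 at 1000 UMIs and 0.19 under 5-fold dominance, a rule chosen after seeing the data, and in ULA libraries 0.12 at 1000 UMIs. Differences between classes turned for PLAT with PA (DESeq2 0.047), PLAUR with PA (1000 UMIs 0.25, dominance 0.042) and PLAUR with OA (1000 UMIs 0.11). PLAT with OA in COL-positive cells was 0.19 under dominance, and SERPINE2 on ULA day 34 in EPCAM-positive cells 0.14 under dominance and 0.081 with at least 2 UMIs. Genes called with PA were 51 (DESeq2), 162 (no filter), 4 (replicate block) and 16 (2 groups) against 9. Those of the OA control against untreated were 701 (DESeq2), 523 (no filter), 0 (replicate block), 0 (2 groups) and 0 (the experiment's own genes, which also splits the OS fit) against 111, and those of the ULA days 0 with the block against 3285. The cause of these changes was not tested.

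With 1 library left out, values ranged as follows. With PA, SERPINE2 ran from -0.94 to 0.34, PLAT from -0.81 to 0.63, PLAU from -0.43 to 0.82 and PLAUR from -0.40 to 0.86. SERPINE2 with OA ran from 0.96 to 1.19. In the OA control against untreated, SERPINE2 ran from -0.14 to 0.52, PLAT from -0.22 to 0.63, PLAU from -0.45 to 0.32 and PLAUR from -0.44 to 0.24. On ULA day 34 SERPINE2 ran from -0.069 to 0.31 and PLAUR from 0.34 to 2.14. PLAU between OS classes ran from -0.24 to 0.10. Differences between classes ran from -0.36 to 0.54 (PLAT, PA), -0.042 to 1.4999 (PLAU, PA), -0.78 to 0.32 (SERPINE2, OA control) and 0.39 to 1.29 (PLAU, OA control). In EPCAM-positive cells PA gave -1.03 to 0.18 (SERPINE2), -0.38 to 0.70 (PLAU) and -0.35 to 0.72 (PLAUR), the OA control -0.77 to 0.063 (PLAU) and -0.35 to 0.26 (PLAUR), and ULA day 34 -0.094 to 0.046 (SERPINE2). In COL-positive cells TGFB1 gave -0.53 to 0.20 (PLAT) and -0.17 to 1.43 (PLAU), and PA gave -0.18 to 1.05 (SERPINE2), -0.81 to 0.46 (PLAT), -0.38 to 1.84 (PLAU) and -0.72 to 0.69 (PLAUR). There the OA control gave -0.35 to 0.41 (SERPINE2) and -0.075 to 0.23 (PLAUR), and ULA day 34 -0.59 to 0.14 (SERPINE2). Genes called ran from 1704 to 5552 (TGFB1), 0 to 20 (PA), 5164 to 6564 (OA), 0 to 164 (OA control) and 669 to 6696 (ULA).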
